A study of Homo sapiens with 3 samples.

Results

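The genes of N-glycan assembly and oligosaccharyl transfer build the lipid-linked sugar of the endoplasmic reticulum (ER), move it to nascent proteins, and then trim and branch it. The list held 46 genes of the pathway, and 103 probe sets of the 54675 on the array were listed for at least 1 of them. Of these, 97 were listed for a single gene and covered 45 of the 46 members, whereas 6 were listed for several genes. ALG11 had only probe sets shared with UTP14C or UTP14A and was therefore not measured on its own. Total RNA came from HEK-293T cells under no stress. This line descends from human embryonic kidney and, by the sample records, carries a temperature-sensitive SV40 T-antigen gene and was kept in DMEM with 10% serum. Of the pair harvested after 48 h, the low-seeded one started from 375000 cells and the high-seeded one from 750000. The 24 h culture started from 1000000 cells. Each was measured on a single Affymetrix U133 Plus 2.0 array, so harvest time, seeding density and any batch cannot be told apart. The arrays were run to learn which genes the cell line expresses before RNAi, and no stressed or treated cells were among them.

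N-linked glycosylation begins on dolichol phosphate, a membrane lipid, onto which sugars are added first on the cytosolic and then on the lumenal face of the ER. Oligosaccharyltransferase (OST) transfers the finished oligosaccharide to asparagine residues of proteins entering the ER. Glucosidases and mannosidases then trim it while lectin chaperones read the trimmed forms as a sign of folding, and Golgi enzymes add branches and a core fucose. Inherited defects in many of these genes cause congenital disorders of glycosylation.

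All 45 measured genes were above background in the unstressed cells, at each of the 8 steps of the pathway. Over the whole array 52.4% of genes were above background. By the number of probe sets a gene had, the share was 35.5% among genes with a single probe set and 67.3% among genes with several, and the pathway held 19 genes of the first kind and 26 of the second. Background was read from genes of other tissues and from olfactory and bitter taste receptors. The threshold was their 95th percentile, at 92.3 in the low-seeded 48 h culture, 105.8 in the high-seeded 48 h culture and 85.6 in the 24 h culture, and a probe set had to pass it in every culture. Among the probe sets of a single gene, 79 of the 97 in the pathway were above background, while the rate was 45.8% over the array. Signals are MAS5 values (intensity on a linear scale, scaled by the authors to a common mean on each array). Probe sets differ in how strongly they bind, so the levels are given gene by gene and not ranked.

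**Figure D1:**
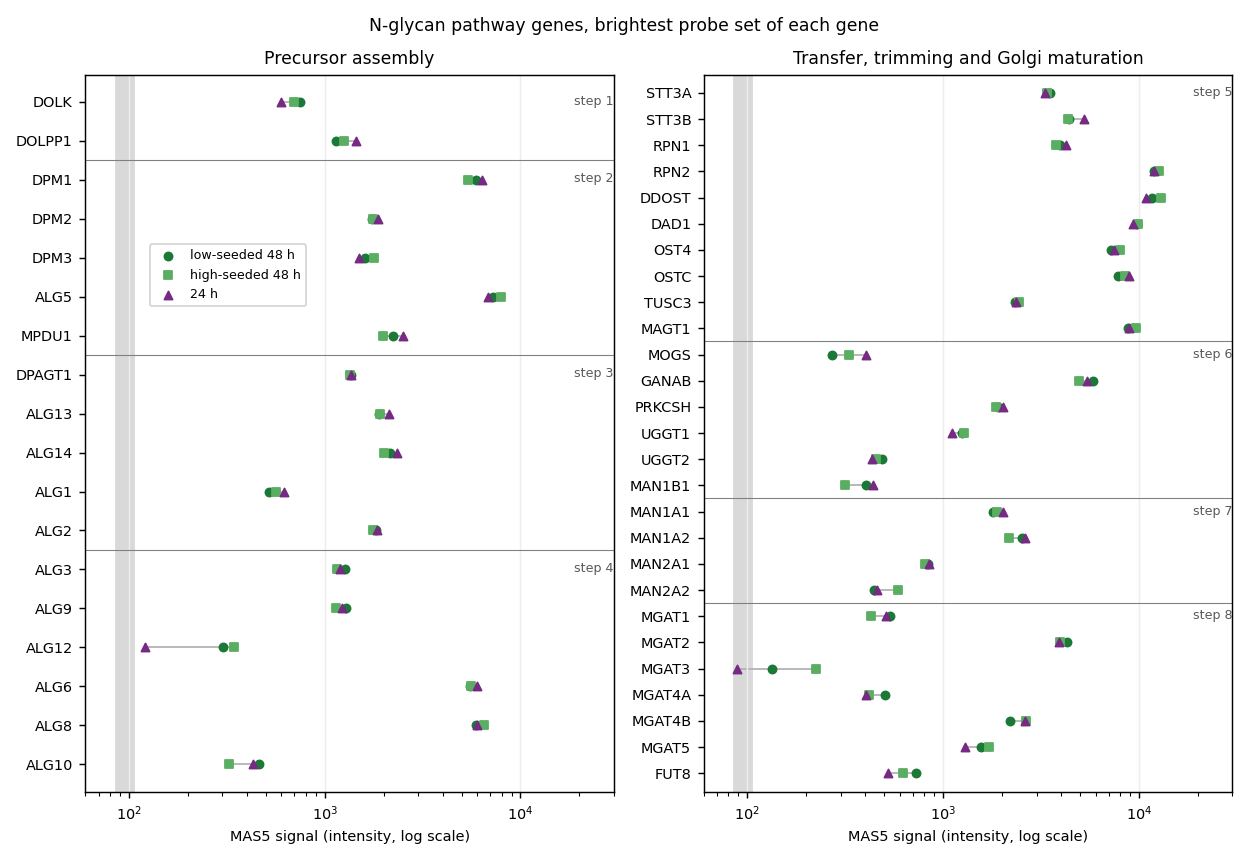
MAS5 signals (horizontal axes, intensity, log scale) of the brightest single-gene probe set of each of 45 N-glycan pathway genes in the 3 HEK-293T cultures. Circles and squares are the low-seeded and high-seeded 48 h cultures, triangles the 24 h culture, steps 1 to 8 are dolichol phosphate supply, sugar donors, cytosolic face, ER lumen, OST, ER trimming, Golgi mannosidases and branching with core fucose, and the grey band runs between the thresholds of 85.6 and 105.8. ALG12 and MGAT3 come nearest to the band, and the 24 h value of MGAT3 lies in it.

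At the first step, the dolichol kinase DOLK, which makes dolichol phosphate, gave a signal of 681 ± 74.3 (SD, n = 3 arrays here and below). DOLPP1, a phosphatase that recycles dolichol pyrophosphate after transfer, gave 1280.2 ± 147. Both genes have 1 probe set. The lipid-linked mannose and glucose donors were above background with all 5 genes. Dolichol-phosphate mannose synthase is made of a catalytic subunit, DPM1, at 5886 ± 506, the stabilizing subunit DPM2 at 1792 ± 63.5, and DPM3, which anchors the enzyme in the membrane, at 1632 ± 144. ALG5, which makes dolichol-phosphate glucose, gave 7322 ± 568 on its brightest probe set. MPDU1, needed for the use of both donors, gave 2253 ± 267. Each of the last 2 genes also had a probe set below the threshold, at means of 54.9 and 15.3.

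On the cytosolic face of the ER, 5 of the 6 genes could be measured and all were above background. DPAGT1, which starts the oligosaccharide by adding N-acetylglucosamine phosphate to the lipid, gave 1370.2 and 1341 in the 48 h cultures and 1366 in the 24 h culture. These values lie within a CV of 1.15%. ALG13 and ALG14 together form the transferase of the next sugar, ALG13 being the catalytic part and ALG14 its membrane anchor. The brightest probe set of ALG14 gave 2173 ± 175 and that of ALG13 1979 ± 137. The mannosyltransferases ALG1 and ALG2 gave 568 ± 51.4 and 1819 ± 42.0. For the mannosyltransferase ALG11 the shared probe sets gave means of 2823 and 1450.5, which cannot be divided between ALG11 and the UTP14 genes.

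In the ER lumen all 6 genes were above background. The mannosyltransferase ALG3 gave 1277 and 1156 in the 48 h cultures and 1201 in the 24 h culture, and ALG9, another mannosyltransferase, averaged 1219.9 ± 71.3. The glucosyltransferases ALG6 and ALG8, which add the first glucoses, gave 5702 ± 247 and 6125 ± 327. ALG10, which adds the last glucose that OST recognizes, gave 404 ± 71.5 on its brightest own probe set, and 3 further probe sets shared with its near-identical copy ALG10B gave means of 366 to 514. Because the copies are so alike, the signals listed for ALG10 alone are uncertain as well. The mannosyltransferase ALG12 was close to the threshold. Its single probe set gave 303 and 343 in the 48 h cultures and 120.4 in the 24 h culture, which was 1.41 times the threshold of that array.

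OST exists in forms built around either of 2 catalytic subunits. STT3A acts on proteins as they enter the ER channel, and STT3B acts on sites that STT3A has skipped. All 10 OST genes of the list were above background, with 18 of 19 probe sets. STT3A gave 3501 and 3382 in the 48 h cultures and 3300.5 in the 24 h culture, and STT3B gave 4406 and 4347 in the 48 h cultures and 5238 in the 24 h culture. Both catalytic subunits were therefore far above the threshold in every culture. Of the subunits that both forms share, RPN1 gave 3983 ± 221, RPN2 12149 ± 402 and DDOST 11867 ± 1059.9. DAD1, a small subunit without which the complex is unstable, gave 9629.9 ± 312, and the short membrane protein OST4 gave 7541 ± 399. OSTC, a subunit of the STT3A form, gave 8411 ± 581. The STT3B form contains an oxidoreductase, either MAGT1 or TUSC3, and both genes were above background. MAGT1 gave 9152 ± 487 with all 3 probe sets above the threshold, and TUSC3 gave 2332 and 2448 in the 48 h cultures and 2357 in the 24 h culture, with 4 of 5. The brightest probe sets of TUSC3 and RPN2 are of a kind that may also bind other genes (marked _x_at), and those of DDOST and MAGT1 may bind several transcripts (marked _s_at). The second brightest TUSC3 probe set, at a mean of 2139, is marked _x_at as well. The TUSC3 probe sets without that mark gave lower means of 345, 240 and 41.4, the last below the threshold. The median SD on the log2 scale was 0.08 over the 10 OST genes.

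The ER trimming enzymes and folding sensors were above background with all 6 genes. MOGS, the glucosidase that removes the outermost glucose, gave 269.9 and 331 in the 48 h cultures and 404 in the 24 h culture. Glucosidase II is made of the catalytic subunit GANAB, at 5404 ± 469, and the regulatory subunit PRKCSH, at 1927 ± 80.9. Both values come from probe sets marked _x_at. The other probe set of each gene gave a lower mean, 2269 for GANAB and 982 for PRKCSH. UGGT1 puts a glucose back on misfolded glycoproteins so that they bind the lectin chaperones again, and UGGT2 is its paralog. For UGGT1, 4 of 5 probe sets passed the threshold, with 1213 ± 94.2 on the brightest, and for UGGT2 3 of 7 did, with 458 ± 28.0. MAN1B1, a mannosidase that marks glycoproteins for degradation, gave 385 ± 62.2.

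The Golgi mannosidases were above background with all 4 genes. MAN1A1 and MAN1A2, which trim before branching starts, gave 1902 ± 118 and 2433 ± 226. MAN1A2 passed the threshold on 4 of 6 probe sets, with those other than the brightest at means of 9.71 to 551. MAN2A1 and MAN2A2, which remove the last mannoses after the first branch is in place, gave 826 ± 20.5 and 497 ± 77.4. Among the branching enzymes, MGAT1, which opens the way from high-mannose to complex glycans, gave 491 ± 57.2, and MGAT2, which adds the second branch, 4057 ± 206. MGAT4A and MGAT4B, enzymes of a further branch, gave 442 ± 53.8 and 2482 ± 245. All 3 probe sets of MGAT2 passed the threshold, those other than the brightest at means of 215 and 2122. MGAT4A passed on 2 of 4, with those other than the brightest at means of 48.2 to 115.5. MGAT5, whose product is raised in many tumours, gave 1524 ± 210.5, and FUT8, the enzyme of core fucosylation, gave 722 and 622 in the 48 h cultures and 522 in the 24 h culture. The other probe set of MGAT5 was below the threshold, at a mean of 7.16. MGAT3, which adds the bisecting N-acetylglucosamine that halts further branching, was at the edge of detection. Its brightest probe set gave 133.2 and 224 in the 48 h cultures and 88.5 in the 24 h culture, only 1.03 times the threshold there, and its other 2 probe sets were below it, with means of 76.2 and 17.1.

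In 33 of the 45 genes every probe set was above background, and in 12 at least 1 was not. The 33 include the 19 genes with a single probe set, so the 12 all fall among the 26 genes with several. The same count was not made over all genes of the array. The probe sets that fell below the threshold were mostly far under it, with a median of 0.225 times the threshold on the array where each was lowest. Of the 18, 16 were of the kind designed for a single transcript (marked _at), as were 49 of the 79 above background. Of those above background near the limit, MGAT4A had a probe set at 101 and 137 in the 48 h cultures and 108 in the 24 h culture. With the 99th percentile as threshold ALG12 and MGAT3 were no longer above background. The 36 genes above background without probe sets of shared sequence did not include 8 genes that have no other kind of probe set, among them DPAGT1, RPN2, DDOST, MGAT1 and MGAT2. They also did not include MAN2A2, whose remaining probe set gave 74.7 and 173 in the 48 h cultures and 117 in the 24 h culture.

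**Figure D2:**
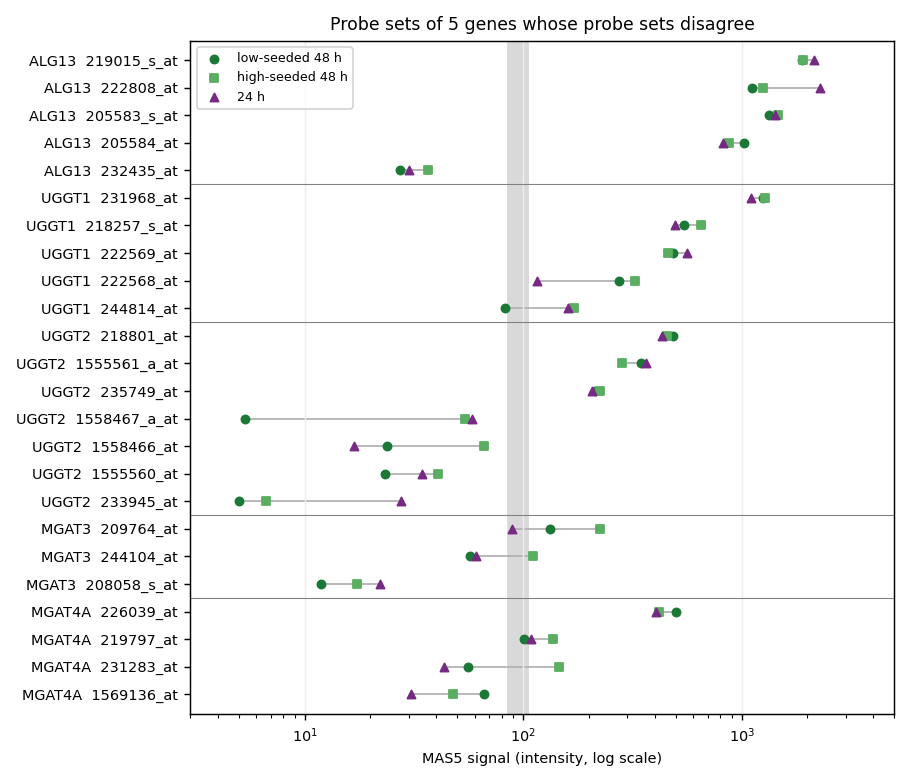
MAS5 signals (horizontal axis, intensity, log scale) of every single-gene probe set of ALG13, UGGT1, UGGT2, MGAT3 and MGAT4A. Circles and squares are the low-seeded and high-seeded 48 h cultures, triangles the 24 h culture, and the grey band runs between the lowest and highest threshold. Only the second brightest probe set of ALG13, at 1121 and 1258 in the 48 h cultures against 2294 in the 24 h culture, was called between harvest times.

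The other genes of the pathway were described with a list of 55 genes that supply sugars, recognize the trimmed glycans or finish them. Of these, 48 were measured and 42 were above background, beside 52.4% of all genes and 67.3% of those with several probe sets. All 13 measured genes of sugar nucleotide synthesis were, as were all 4 transporters of nucleotide sugars. So were all 12 genes of a group of ER lectins, related mannosidases and cargo receptors, which also held PDIA3 and NGLY1. The lectin chaperone CANX, which holds monoglucosylated glycoproteins, gave 15577 ± 1168. Near the limit were the transporter SLC35C1, at 1.46 times the threshold on its lowest array, and the sialyltransferase ST3GAL4, at 1.15 times. Both fell below with the 99th percentile as threshold. The 6 genes not above background were all among the other Golgi enzymes, where 9 of 15 were. They were the mannosidase MAN1C1 at 111 ± 10.8, which exceeded the threshold on 2 of 3 arrays, the branching enzymes MGAT4C at 10.7 ± 12.6 and MGAT5B at 59.3 ± 31.7, the sialyltransferase ST6GAL2 at 43.7 ± 25.7, and the fucosyltransferases FUT7 at 34.1 ± 10.6 and FUT9 at 30.5 ± 39.8.

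Among cell type markers, 5 of 7 measured genes of the kidney progenitor (PAX8, SIX2, EYA1, WT1 and SALL1) and 4 of 4 epithelial genes were above background, beside 52.4% of all genes and 67.3% of those with several probe sets. The count of 5 of 7 is near the last of these shares, so it says little about the cell line. PAX2, at 120.1 ± 31.1, and LHX1, at 36.4 ± 25.9, were not above background, and PAX8 was on 1 of its 8 probe sets. The brightest probe set of PAX2 gave 85.5 and 145.9 in the 48 h cultures and 128.9 in the 24 h culture. Only its value in the low-seeded 48 h culture was below the threshold, at 0.926 times. The epithelial gene EPCAM passed narrowly, at 134.8 and 111.2 in the 48 h cultures and 130.6 in the 24 h culture (1.05 times the threshold where lowest). CDH1 passed on 1 of its 2 probe sets. None of 6 genes of the mature renal tubule and podocyte was above background, with AQP2 at 49.8 ± 26.9, CUBN at 24.2 ± 13.4 and NPHS1 at 12.6 ± 4.23, and none of 6 immune and endothelial genes. The trimmed mean signal was 499.9 on each array, and RNA integrity numbers were 9.6 and 10.0 in the 48 h cultures and 9.5 in the 24 h culture. Across probe sets above background, which are not independent replicates, the correlation of log2 signals between cultures ran from 0.983 to 0.986.

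Between the 48 h and the 24 h cultures 1 of 87 tested probe sets of the pathway was called, and it belonged to ALG13. Over all 23575 probe sets tested 0.233% were called, 0.0467% higher and 0.187% lower at 48 h. The second brightest probe set of ALG13 gave 1121 and 1258 in the 48 h cultures and 2294 in the 24 h culture, so that both 48 h cultures lay well below the 24 h culture and close to each other. The log2 difference, 48 h minus 24 h, was -0.94 (standard error 0.14, limma with Benjamini-Hochberg adjustment over all probe sets tested, adjusted p = 0.00705). The other probe sets of ALG13 above background, singled out after their values were seen, were not called. They gave 1890.3 and 1910.2 in the 48 h cultures against 2136 in the 24 h culture on the brightest (log2 difference -0.17, limma, adjusted p = 0.748), 1327 and 1474 against 1422 on the third (-0.02) and 1029 and 879 against 823 on the fourth (0.20). The fall at 48 h was called on 1 of these 4 probe sets, and which transcripts each detects was not analysed here. The call was lost after scaling to equal medians (log2 difference -0.99, limma, adjusted p = 0.254) and without the mean-variance trend of the fit (adjusted p = 0.785), with a range of 0.000218 to 0.785 over the 6 alternatives tested. The fit has 1 residual degree of freedom. In limma each variance was drawn toward the trend over all probe sets tested, which gave 16.5 degrees of freedom in total. Standard errors and p-values therefore rest mostly on the spread of other probe sets of like signal. The fit also assumes that the spread of the 48 h pair, which differed in seeding, holds for the single 24 h array. Nothing in the sources used here says how the cultures were derived from each other, so p-values do not reach beyond these samples.

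ALG13 has 2 annotated starts in the RefSeq promoter table (GRCh38.p14), 487 bases apart on the plus strand of chromosome X, and the 100 bases before each are shown because this gene carries the single called difference. Capitals mark GC boxes (GGGCGG or its reverse complement), of which the first stretch holds 1 and the second 2.
ALG13 first start, chrX:111681070-111681169: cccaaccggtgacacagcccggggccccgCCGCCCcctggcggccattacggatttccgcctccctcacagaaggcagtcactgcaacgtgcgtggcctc
ALG13 second start, chrX:111681557-111681656: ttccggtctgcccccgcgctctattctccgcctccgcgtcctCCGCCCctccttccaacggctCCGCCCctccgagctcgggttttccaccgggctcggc

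Among the brightest probe sets the 4 largest differences in each direction did not pass the test. The difference was 1.29 for ALG12 (standard error 0.34, limma, adjusted p = 0.154). Its values of 303 and 343 in the 48 h cultures and 120.4 in the 24 h culture do not overlap, nor did those of 70.2% of all probe sets tested. The difference was 0.84 for MGAT3 (standard error 0.46), near the detection limit, 0.35 for FUT8 (0.20) and 0.33 for MGAT5 (0.13). MGAT5 gave 1567 and 1709.5 in the 48 h cultures and 1295 in the 24 h culture. In the other direction it was -0.41 for MOGS (0.29), -0.28 for MAN1B1 (0.27), and -0.26 for both STT3B (0.10) and DOLPP1 (0.14). Leaving out the low-seeded or the high-seeded 48 h culture gave -0.27 or -0.55 for MOGS, -0.44 or -0.12 for MAN1B1 and 1.18 or 0.50 for MGAT3. The adjusted p of these 8 genes, from the same limma fit, lay between 0.154 and 0.829. The fourth brightest probe set of UGGT1, singled out after its values were seen, gave 275 and 326 in the 48 h cultures and 116 in the 24 h culture (log2 difference 1.24, standard error 0.35, limma, adjusted p = 0.211). The brightest probe set of the same gene gave 1251 and 1281 in the 48 h cultures and 1105 in the 24 h culture (0.19). Its other probe sets differed in sign, at 0.26, -0.24 and -0.37, and none was called.

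**Figure D3:**
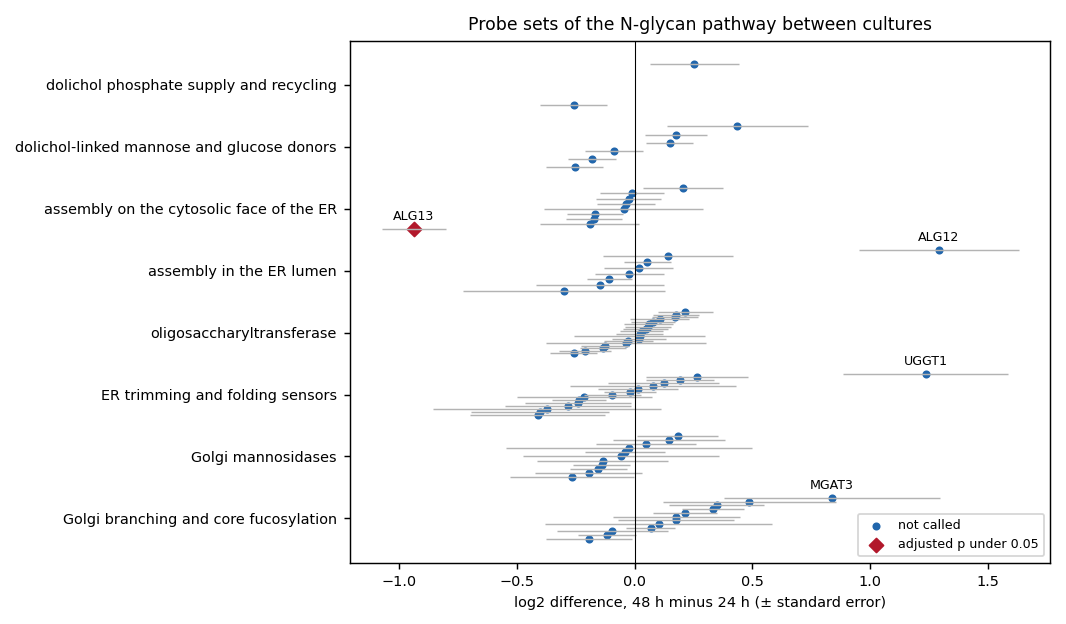
Log2 differences, 48 h minus 24 h (horizontal axis, points, with standard errors as bars), of the tested single-gene probe sets of the N-glycan pathway by step (vertical axis). The diamond is the ALG13 probe set at -0.94, the only one with an adjusted p under 0.05. Most of the others lie within 0.25 of 0.

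Over the 87 probe sets tested the median log2 difference was -0.02, with 41 above 0 and 46 below. Over all probe sets tested it was -0.005, with 11588 above 0 and 11987 below. Of the pathway, 66 probe sets (75.9%) differed by less than 0.25 on the log2 scale, as did 66.3% of all probe sets tested. The 48 h values lay both above or both below the 24 h value for 62 of the 87, 29 above and 33 below, while 70.2% of all probe sets tested showed such a separation, 35.2% above and 35.0% below. At an unadjusted p under 0.05 there were 6 of 87 in the pathway and 2131 of 23575 over all. The brightest probe sets of all 5 genes of the cytosolic face had differences below 0, of -0.19 to -0.01, and none passed the test. Another ALG13 probe set of this step gave 0.20. Those of the OST genes ran from -0.26 to 0.17, with 7 of 10 above 0, and those of branching and core fucosylation from -0.12 to 0.84, with 5 of 7 above 0. Among the 22 genes with several tested probe sets, the signs were the same on every probe set in 11 and mixed in 11. The median SD on the log2 scale over all 3 arrays was 0.115 for the 45 genes and 0.137 over the 10353 genes of the array whose brightest probe set was above background. Of the 76 tested probe sets of the further pathway genes 0 were called by limma, and 7 had an unadjusted p under 0.05.

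Sequence upstream of the starts was the one feature compared that does not come from the arrays. Of the 46 genes, 38 had an entry in the RefSeq promoter table, with 63 promoters. Each annotated start counted as 1 promoter, so genes with several starts weigh more in the shares below. In the 250 bases before each start 10 short motifs were searched on both strands. The ER stress response element (CCAAT, 9 bases of any kind, then CCACG), through which unfolded protein in the ER can raise transcription, was found in 1 of 63 promoters, that of ALG12, and in 0.0740% of all 35116 promoters. The stretch is shown because it holds the only match to this element among the 63 promoters. Whether the element bears on the signals of ALG12 was not tested. Capitals mark the letters of the element that are fixed, and it lies 134 to 116 bases before the start on the minus strand of chromosome 22 (GRCh38.p14).
ALG12, chr22:49918534-49918592: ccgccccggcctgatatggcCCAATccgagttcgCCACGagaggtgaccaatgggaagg
The GC box (GGGCGG) was in 38 of 63 promoters (60.3%), of 31 genes, and in 42.6% of all promoters. The box CCAAT, which is also part of the element above, was in 33.3% and in 32.0% of all promoters, and the E-box CACGTG in 6.35% and in 6.34%. TATAAA was in 4 promoters (6.35%), those of ALG3 and DPM1, and in 10.7% of all promoters. The cAMP response element TGACGTCA, the unfolded protein response core TGACGTGG and the palindrome TTGCGCAA were in none of the 63, and in 1.65%, 0.612% and 0.131% of all promoters. The short runs CCACG and TGACGTG, parts of longer elements above, were in 58.7% and 1.59%, and in 33.5% and 1.68% of all promoters. These are matches of letters within the window, and no binding was measured.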

How the data were processed

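HEK-293T total RNA from 3 cultures was hybridized by the authors, each to a 1-colour array. The deposited values are MAS5 signals, an intensity on a linear scale, made by the authors with GCOS 1.0 (submitters' processing notes) and scaled to a common mean. The absent/present calls of the study were not used here. Probe sets were named through the platform annotation and its gene IDs, and those of 88 probe sets did not match the GRCh38.p14 annotation and kept their symbol. The annotation gave 41098 of them a single gene. Background came from 366 probe sets (255 genes), of which 3 passed the threshold themselves (CYP1A2, KLK3 and TNNT3).

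Cultures were compared with limma 3.58.1 (R 4.3.3), with a mean-variance trend and Benjamini-Hochberg adjustment, on log2(signal + 19.2), where 19.2 is the median of the background signals. Probe sets entered where their mean log2 signal exceeded that of the mean threshold (94.6). The added value makes differences between low signals look smaller. The detection rule and the limma fit were tested on simulated data. For limma, the simulated spread followed a trend with mean signal, as the fit assumes. That simulation therefore cannot show how far the real calls depend on the trend. Values are given for the brightest single-gene probe set of each member. For the comparison of cultures, values are given for called members and for the 4 largest differences in each direction among brightest probe sets. The members and lists were chosen by pathway step or cell type, and with earlier results of these data known. Precision is limited by having 3 arrays. Alternatives were other percentiles, another reference, 2 of 3 arrays, probe sets without shared sequence, most probe sets of a gene, other added values, no filter, other normalizations, no trend and leaving out each array.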

Additional observations from a re-analysis of the deposited data

How the results depend on the processing

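The 45 genes above background ran from 36, without probe sets of shared sequence, to 45 over the alternatives, and were 38 when most probe sets of a gene had to be above background. The genes lost under that last rule were MPDU1, ALG2, UGGT2, MAN2A2, MGAT3, MGAT4A and MGAT5. Leaving out each array in turn left 45. The further pathway genes ran from 30 to 43, against 42. Of the pathway, 1 probe set was called between cultures, and 0 were after scaling to equal medians or without the mean-variance trend of limma. Over all probe sets tested 55 were called (11 higher and 44 lower at 48 h), against 102 without the filter on low signals, 14 after scaling to equal medians (7 higher and 7 lower) and 0 without the trend, where 1363 had an unadjusted p under 0.05. The cause was not tested. No named difference between cultures changed sign under the settings with a test, but that of the third brightest ALG13 probe set (-0.02) was 0.05 without the low-seeded 48 h culture, and that of the fourth (0.20) was 0.09 without it and 0.32 without the high-seeded one. Without the low-seeded 48 h culture the called ALG13 difference was -0.86, and without the high-seeded one -1.02, as values with no test, since no residual degrees of freedom remain. No paired analysis was possible because only 1 array was harvested at 24 h and the labels give no replicate numbers. MGAT3 and ALG12, near the threshold, are limited by their signal over background, and with the 99th percentile 43 genes were above it.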
